A study of Mus musculus with 26 samples.

Results

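Transcripts of intrinsically photosensitive retinal ganglion cells (ipRGCs) were compared with those of conventional retinal ganglion cells (cRGCs) in adult Opn4-Cre/GFP mice, the melanopsin reporter that labels the wider range of ipRGC types. The comparison held 8 of the 26 libraries of the series, namely 4 ipRGC pools and the 4 cRGC pools that carry the same replicate numbers. It used every gene listed for these 8 libraries, 13357 of the 14580 genes of the series. Of these, 1916 had no value in the adult libraries of the other reporter, Opn4-GFP.

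Both groups came from retinas of mice of one genotype, Opn4-Cre+/-;Z/EG+/- animals of mixed background aged 27 to 33 postnatal days. Cre is expressed from the melanopsin locus in this strain, and Cre can switch the Z/EG transgene permanently to GFP. Dissociated cells of several animals were enriched with beads against Thy-1 and sorted by fluorescence, the ipRGC pools as GFP-positive cells and the cRGC pools as the GFP-negative cells that remained. The GFP label therefore records past as well as present Cre expression. By the study's account some ipRGCs of this reporter carry no GFP, and such cells enter the cRGC pools. Each library is a pool of animals, and the p-values below measure the spread between pools. The main fit did not pair the sorts that share a replicate number, although by the study's account they came from the same pool. Fits with a term for the replicate number, called a replicate block, are given as alternatives. Polyadenylated RNA was amplified as cDNA before sequencing. In such bulk samples, fewer cells of a type and less RNA per cell cannot be told apart.

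Melanopsin, encoded by Opn4, is an invertebrate-like opsin that lets ipRGCs respond to light without rods and cones. It signals through Gq proteins and phospholipase C to TRPC cation channels, and its cells set the circadian clock, drive the pupil reflex and, in the types with less melanopsin, contribute to pattern vision. They are a small minority of ganglion cells and many depend on the T-box factor Eomes. Müller glia, the radial glia of the retina, wrap ganglion cell bodies and are the commonest non-neuronal cells there.

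The libraries of pool 4 stood apart. Pools 1 to 3 held 27386472 to 44871619 reads on the listed genes, whereas pool 4 held 9482809 in the ipRGC and 6899510 in the cRGC library, each from 1 sequencing run rather than 2. Between 22 and 432 listed genes had no read in pools 1 to 3, against 1595 and 1381 in pool 4. On the log2 scale ipRGC pools 1 to 3 correlated with each other across genes at r between 0.913 and 0.937, and pool 4 correlated with them at 0.758 to 0.775. The cRGC pools were less alike (r between 0.627 and 0.815). Genes are not independent replicates, so these values only describe the libraries. Where a value below rests on pool 4, the value without both libraries of that pool is given beside it for several genes, though not for all.

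The labels were checked against marker genes. All 16 ganglion cell markers were listed, and their summed level was 5369 to 7877 CPM (reads of a gene scaled to a fixed total of listed reads) in the ipRGC pools and 1101 to 3107 CPM in the cRGC pools. Müller glial markers (18 of 19 listed) summed to 978 to 1781 CPM in the ipRGC pools and 11862 to 49561 CPM in the cRGC pools, a 17.8-fold difference of the means. Amacrine cell markers (13 of 15 listed) summed to 1563 to 2544 CPM against 2525 to 5760 CPM. The cRGC pools thus held ganglion cell RNA together with much RNA of other cells, and the name cRGC is used here for the sort gate. Rod markers (8 of 14 listed) lay at 22.4 to 28.8 CPM in ipRGC pools 1 to 3, at 460 CPM in ipRGC pool 4 and at 244 to 1027 CPM in the cRGC pools. None of 8 microglial markers was listed.

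Gene by gene, 263 of 13357 genes (1.97%) rose in the ipRGC pools and 464 (3.47%) fell, at an adjusted p under 0.05 and more than 2-fold. A log2 change is the log2 fold change, ipRGC minus cRGC on log2(CPM + 1), tested with limma and adjusted by Benjamini-Hochberg over all listed genes, and levels are the deposited scaled CPM. Each listed gene reached 1 CPM in at least 3 of the 8 libraries, 32 genes in only 3 and 8238 in all 8, so a gene could be listed through 1 group alone. All 263 higher genes were higher in each of the 4 same-numbered pairs, and in 257 of them the groups did not overlap. Over all listed genes the groups did not overlap in 733 genes (5.49%) with the ipRGC pools above and in 850 genes (6.36%) with them below. The median log2 difference over all genes was 0.03. Among the higher genes it was 2.82, and 35 of them exceeded 4. Without both libraries of pool 4 the counts were 218 (1.63%) and 515 (3.86%), and 159 of the 263 higher and 391 of the 464 lower genes were called again. The edgeR quasi-likelihood test on the recovered reads called 115 (0.861%) higher and 315 (2.36%) lower genes. DESeq2 called 340 (2.55%) and 804 (6.02%). With a replicate block limma called 207 (1.55%) and 400 (2.99%) and edgeR 47 (0.352%) and 175 (1.31%). The higher genes took 7.46 to 8.93% of listed reads in the ipRGC pools and 0.958 to 2.90% in the cRGC pools.

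**Figure D1:**
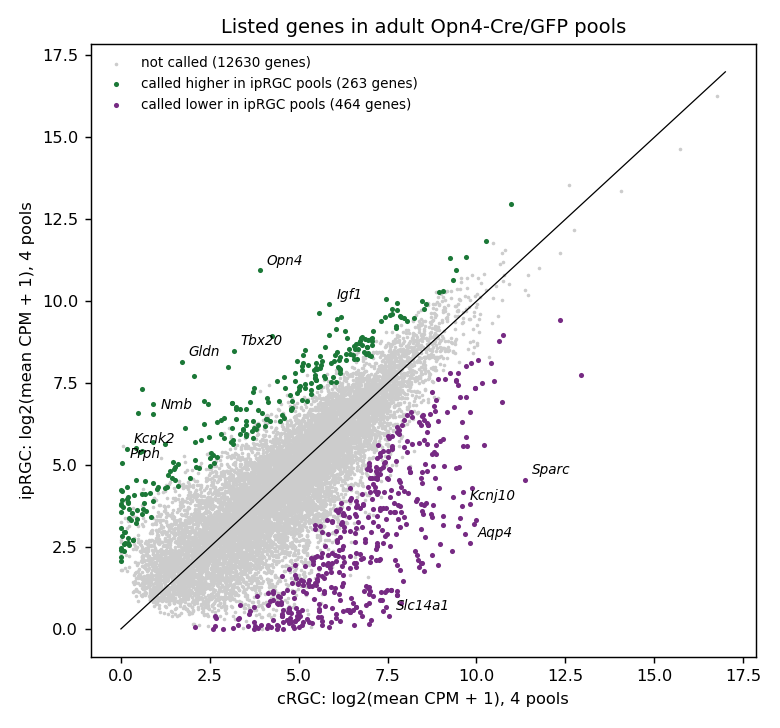
Mean level of each listed gene in the 4 cRGC pools (x axis) against the 4 ipRGC pools (y axis), both as log2(CPM + 1), with the 263 genes called higher and the 464 called lower in colour and the line of equal levels. The genes called higher lie above the line and those called lower below it, many of them near 0 in the other group.

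The 15 largest rises were led by Opn4, whose locus drove the label used for the sort. Opn4 was at 2841, 819.7, 1011 and 3256 CPM in ipRGC pools 1 to 4 and at 2.36, 11.1, 1.87 and 40.4 CPM in cRGC pools 1 to 4 (log2 change 7.64, SE 0.75, adjusted p = 5.41e-05). The ipRGC pools fell into a high pair (1 and 4) and a lower pair (2 and 3), all far above every cRGC pool. Trpc7, a subunit of the melanopsin-gated cation channel, had the same high pair, with 257, 36.997, 78.1 and 263 CPM against 0.291, 0.120, 1.52 and 0.148 CPM (log2 change 6.38, SE 0.82, adjusted p = 0.000285).

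The set included 2 T-box transcription factors. Tbx20, at 504, 313, 429 and 188 CPM in the ipRGC pools, was at 0.524, 7.88, 0.686 and 22.96 CPM in the cRGC pools (log2 change 6.12, SE 0.80, adjusted p = 0.000305). Here ipRGC pool 4 was the lowest of its group and cRGC pool 4 the highest of its own, yet every ipRGC pool lay above every cRGC pool. Eomes stood at 484, 319, 459 and 693 CPM against 2.50, 33.6, 6.02 and 29.6 CPM (log2 change 5.21, SE 0.67, adjusted p = 0.000285).

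Secreted signals and matrix proteins made up much of the rest. Gldn encodes gliomedin, which gathers sodium channels at nodes of peripheral nerves. It was at 267, 122, 283 and 464 CPM in the ipRGC pools and 0.233, 3.29, 5.07 and 0.444 CPM in the cRGC pools (log2 change 6.62, SE 0.71, adjusted p = 8.39e-05), and lies at chr9:54134293-54189593 (mm9). Gdf6, a ligand of the bone morphogenetic protein family, was at 75.4, 81.1, 112 and 195 CPM against 2.71, 0.264, 0.305 and 0.148 CPM (log2 change 6.06, SE 0.75, adjusted p = 0.000200), with cRGC pool 1 alone above 1 CPM in its group. Adcyap1 encodes the neuropeptide PACAP, the co-transmitter of ipRGCs to the clock. It was at 183, 131, 231 and 286 CPM against 0.495, 3.60, 1.75 and 6.67 CPM (log2 change 5.85, SE 0.66, adjusted p = 0.000102), every ipRGC pool being far above every cRGC pool. Nmb, the peptide neuromedin B, ranged more widely, at 104, 23.3, 58.8 and 184 CPM against 0.116, 0, 3.28 and 0.148 CPM (log2 change 5.58, SE 0.86, adjusted p = 0.00116).

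Among the largest rises were 2 enzymes that sulfate heparan chains on the cell surface. Hs3st2, a 3-O-sulfotransferase, was at 172, 40.6, 49.4 and 123 CPM in the ipRGC pools and at 0.349, 0.961, 0.0762 and 0.148 CPM in the cRGC pools (log2 change 5.93, SE 0.78, adjusted p = 0.000306). Ndst4, which removes acetyl groups and adds sulfate to the same chains, was at 135, 111, 174 and 76.6 CPM against 0.844, 1.46, 13.6 and 0.296 CPM (log2 change 5.30, SE 0.80, adjusted p = 0.000935). Its one cRGC value above 2 CPM was that of pool 3.

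**Figure D2:**
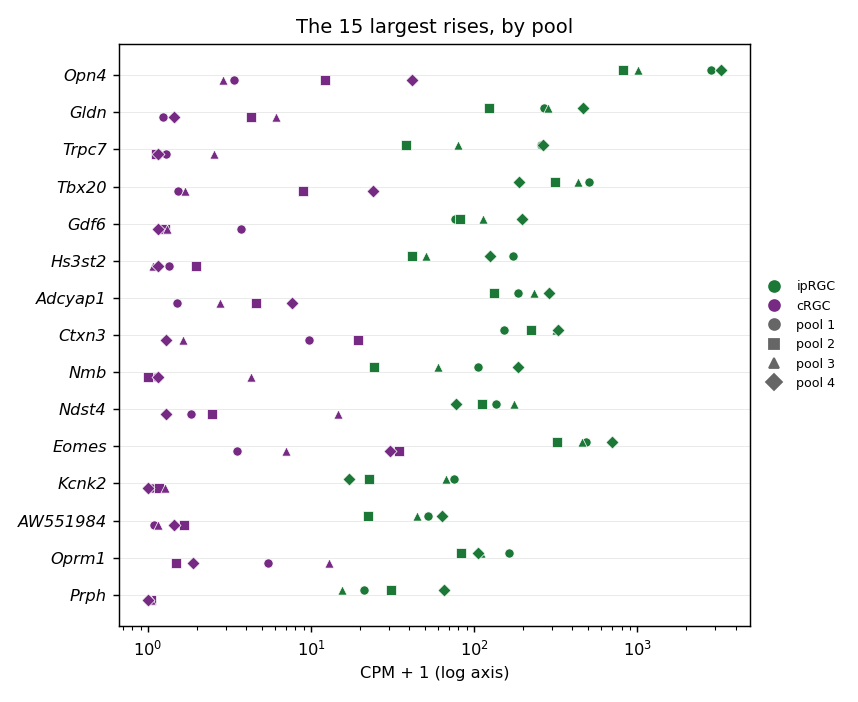
The 15 largest rises by pool, each gene a row and the x axis CPM + 1 on a log axis, with 1 point for each of the 4 ipRGC (green) and 4 cRGC (purple) pools and a symbol for each pool number. In every row the ipRGC points lie to the right of all cRGC points, and the cRGC points of most genes lie near 0.

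The remaining members of this set were a potassium channel, an opioid receptor, an intermediate filament and 2 genes given without a role. Kcnk2 encodes TREK-1, a leak channel opened by stretch and lipids. It was at 74.1, 21.5, 65.8 and 16.2 CPM against 0.0582, 0.168, 0.267 and 0 CPM (log2 change 5.06, SE 0.79, adjusted p = 0.00117). Oprm1, the mu opioid receptor, was at 163, 82.1, 109 and 104 CPM against 4.45, 0.480, 11.9 and 0.889 CPM (log2 change 4.90, SE 0.76, adjusted p = 0.00117), and the 4 ipRGC values lay within 2-fold of each other. Prph, the intermediate filament peripherin, was at 20.1, 29.7, 14.5 and 64.2 CPM against 0, 0.0480, 0.0381 and 0 CPM (log2 change 4.80, SE 0.75, adjusted p = 0.00117), with no read in 2 of the cRGC pools. Ctxn3 and AW551984 had log2 changes of 5.77 and 5.01. In edgeR with a replicate block, Ctxn3, Tbx20 and Nmb of the largest rises had adjusted p-values of 0.0862, 0.0818 and 0.0505.

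Start-site sequence was read for this set from RefSeq promoter windows of GRCm38.p6, each running from 250 bases before to 50 bases after a gene's start. Of the 15 genes, 12 had a window. Searched on both strands were TGACGTC, the core of a cAMP response element, AGGTGT, the core of the site of T-box factors, and the promoter element TATAAA. The first motif, TGACGTC, was in the windows of Hs3st2 and Adcyap1, 2 of 12 genes, of 9.52% of the genes called higher that had a window, of 4.69% of those called lower, of 6.62% of all listed genes and in 3.21% of all windows. AGGTGT was in the same 2 genes, in 16.9% of the genes called higher, 11.4% of those called lower, 12.8% of all listed genes and 13.7% of all windows. TATAAA was in Adcyap1 and Prph, in 16.4% of the genes called higher, 12.3% of those called lower, 8.37% of all listed genes and 13.6% of all windows. The windows of Opn4 (chr14:34600093-34600392, minus strand), Adcyap1 (chr17:93198767-93199066, plus strand, 1 of 2 start windows of this gene) and Hs3st2 (chr7:121392046-121392345, plus strand) are shown because Opn4 made the largest rise and the others held the first and second motifs. Capitals mark these 2 motifs. The capitals in Hs3st2 join 2 overlapping copies of TGACGTC, 1 on each strand, and a match is a run of letters only.
Opn4: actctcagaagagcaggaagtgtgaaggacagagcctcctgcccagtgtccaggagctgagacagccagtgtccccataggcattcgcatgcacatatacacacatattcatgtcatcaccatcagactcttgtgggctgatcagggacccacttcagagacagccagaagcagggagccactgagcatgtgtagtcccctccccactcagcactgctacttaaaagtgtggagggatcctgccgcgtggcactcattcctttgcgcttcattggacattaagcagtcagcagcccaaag
Adcyap1: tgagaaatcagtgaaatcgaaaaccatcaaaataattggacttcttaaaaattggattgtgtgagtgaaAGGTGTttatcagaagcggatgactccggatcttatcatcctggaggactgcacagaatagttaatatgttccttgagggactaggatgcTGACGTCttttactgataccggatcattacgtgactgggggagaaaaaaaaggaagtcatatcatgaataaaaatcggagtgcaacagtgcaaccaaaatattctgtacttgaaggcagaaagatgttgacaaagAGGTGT
Hs3st2: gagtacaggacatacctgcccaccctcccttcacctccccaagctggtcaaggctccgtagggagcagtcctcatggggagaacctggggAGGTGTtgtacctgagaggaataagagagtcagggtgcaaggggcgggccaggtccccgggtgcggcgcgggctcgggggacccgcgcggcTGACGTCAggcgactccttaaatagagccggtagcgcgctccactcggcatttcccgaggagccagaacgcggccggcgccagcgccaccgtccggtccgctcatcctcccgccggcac

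Of 31 listed genes of the melanopsin signalling cascade, from the opsin to its G proteins, lipases, kinases and channels, 10 rose and none fell, with a median log2 difference of 0.73 against 0.03 over all genes. These counts are 32.3% and 0%, against 1.97% and 3.47% over all listed genes. Most of the risers, among them Rasgrp1, Prkcq, Prkcd, Dgkg, Rgs4, Rgs17 and Gng4, were named by the study as ipRGC genes on these samples. The share that rose is therefore not independent evidence. The lists of transcription factors, potassium channels, peptides, modulator receptors, surface genes and Ras regulators below also hold such genes. Besides Opn4 and Trpc7, the risers acted on the lipid branch or on G proteins. Dgkg, a kinase that consumes diacylglycerol, was at 103, 34.8, 42.8 and 25.6 CPM against 0.146, 1.82, 1.03 and 0.444 CPM (log2 change 4.70, SE 0.78, adjusted p = 0.00202). Rgs4, which speeds the switching off of Gq and Gi proteins, was at 644, 759, 934 and 853 CPM against 34.3, 90.4, 40.1 and 19.996 CPM (log2 change 4.27, SE 0.45, adjusted p = 7.76e-05). Gng4, a G protein gamma subunit, was at 396, 278, 321 and 453 CPM against 20.99, 91.2, 27.2 and 2.67 CPM (log2 change 4.06, SE 0.73, adjusted p = 0.00351). Rasgrp1, a Ras exchange factor switched on by diacylglycerol, was at 609, 333, 443 and 181 CPM against 1.63, 59.6, 66.6 and 80.4 CPM (log2 change 3.55, adjusted p = 0.0247, and 0.0738 in the fit with a replicate block).

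Others of the cascade did not pass the test. Plcb4, the phospholipase C that melanopsin uses, was at 525, 386, 508 and 535 CPM against 287, 368, 300.2 and 221 CPM, a log2 difference of 0.74 (adjusted p = 0.262), with the ipRGC pools just above all cRGC pools. Gnb1, a G protein beta subunit, was at 706 to 1240.4 CPM against 319.7 to 842 CPM with overlap (0.73, adjusted p = 0.326).

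Transcription factors of ganglion cells were divided. Of 45 listed, 12 rose and 4 fell (26.7% and 8.89%, against 1.97% and 3.47% over all listed genes), with a median log2 difference of 0.63. Besides the T-box pair, the largest rises were Dmrtb1, at 7.22 to 34.3 CPM against 0 to 0.0381 CPM (log2 change 3.98, SE 0.71, adjusted p = 0.00333), the homeobox gene Irx6, at 48.7 to 156 CPM against 1.71 to 11.96 CPM (log2 change 3.60, SE 0.71, adjusted p = 0.00627), and Onecut2, at 54.7 to 108 CPM against 3.22 to 11.1 CPM (log2 change 3.60, SE 0.63, adjusted p = 0.00290). Pou4f2, Ebf1 and Isl1, which mark ganglion cells in general, had log2 changes of 2.79, 3.16 and 2.65, and the adjusted p of Pou4f2 was 0.0206, or 0.0932 without pool 4. Pou4f1, another such marker, lay lower in the ipRGC pools without passing (-0.86, adjusted p = 0.543). Isl1 is also on the list of bipolar cell markers. The 4 that fell were Tbx2 (-3.45), Nfib (-3.40), Nfix (-3.26) and Jun (-1.85), of which Tbx2 had an adjusted p of 0.0359, and 0.0526 with a replicate block. Nfib and Nfix are nuclear factor I genes known from late-born retinal cells and Müller glia. Jun fell at an adjusted p of 0.0483 in the main fit and had 0.0899 with a replicate block, its ipRGC values being 21.6, 50.6, 37.1 and 52.2 CPM against 209, 157, 189.6 and 62.2 CPM.

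Potassium channel subunits were listed for 59 genes, of which 7 rose and 1 fell (11.9% and 1.69%, against 1.97% and 3.47% over all listed genes), with a median log2 difference of 0.76. The risers included 2 modifier subunits of the Kv family that carry no current alone. Kcng3 was at 89.5, 12.5, 40.3 and 25.99 CPM against 0.0582, 1.58, 0.343 and 0 CPM (log2 change 4.62, SE 0.82, adjusted p = 0.00330), and Kcng1 at 24.4, 15.8, 9.08 and 27.9 CPM against 0, 4.20, 0.0381 and 0 CPM (log2 change 3.62, SE 0.81, adjusted p = 0.0149), with cRGC pool 2 alone above 1 CPM. A second TREK channel, Kcnk10, was at 19.5, 8.26, 11.6 and 13.5 CPM against 0.175, 1.90, 0.190 and 0 CPM (log2 change 3.27, SE 0.72, adjusted p = 0.0129), so both TREK genes named here rose. Kcnj10, the inward rectifier of Müller glia, was the subunit that fell, at 1.05, 8.07, 11.4 and 29.6 CPM against 1354, 429.7, 777 and 542 CPM (log2 change -6.27, SE 0.69, adjusted p = 8.94e-05).

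Of 38 listed sodium, calcium and HCN channel subunits 5 rose and 1 fell (13.2% and 2.63%, against 1.97% and 3.47% over all listed genes), around a median log2 difference of 1.15. Scn9a, the sodium channel Nav1.7, was at 115, 85.6, 143 and 72.6 CPM against 1.37, 12.8, 23.8 and 4.15 CPM (log2 change 3.66, SE 0.73, adjusted p = 0.00688). Scn2a1 and the beta subunit gene Scn3b rose by 2.01 and 2.39 (adjusted p = 0.0201 and 0.0181), and without pool 4 the adjusted p of Scn3b was 0.0849. Scn2b, another beta subunit gene, also rose (1.55, adjusted p = 0.0342, and 0.0962 without pool 4). The called Cacng genes split, with Cacng5 at 209 to 382 CPM against 42.2 to 133 CPM (log2 change 2.26, SE 0.45, adjusted p = 0.00628) and Cacng4 at 45.3 to 133 CPM against 195 to 539 CPM (log2 change -2.04, SE 0.47, adjusted p = 0.0176). These genes are in the list by name, and their calls are not a result about calcium channels. Scn1a and Scn8a lay at 279.9 to 446 and 297 to 401 CPM in the ipRGC pools and overlapped with the cRGC pools (log2 differences 1.09 and 1.59, adjusted p = 0.214 and 0.0740).

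Genes of the peptide and growth factor families counted 36 listed, 8 of which rose and 1 of which, the growth factor gene Igf2, fell (-2.20, adjusted p = 0.0476), with a median of 0.73. Members were taken by family, Fgf12 among the risers included, so not every one is a secreted signal. The shares were 22.2% and 2.78%, against 1.97% and 3.47% over all listed genes. Igf1, insulin-like growth factor 1, reached 713, 629, 1168 and 1356 CPM in the ipRGC pools against 10.7, 82.9, 37.1 and 96.6 CPM (log2 change 4.39, SE 0.58, adjusted p = 0.000314). Gal, the peptide galanin, was at 25.8, 8.36, 12.4 and 14.8 CPM against 0.0291, 0.432, 0.152 and 0 CPM (log2 change 3.73, SE 0.69, adjusted p = 0.00423). Spp1 encodes osteopontin, a marker of alpha ganglion cells that M4 ipRGCs belong to. It was at 35.98, 34.4, 19.1 and 44.002 CPM against 0.0291, 0, 0.0762 and 6.96 CPM (log2 change 4.26, SE 0.87, adjusted p = 0.00774), its cRGC reads being nearly all from pool 4. Without pool 4 the log2 change of Spp1 was 4.85 (adjusted p = 0.00190). Of 8 listed genes that mark alpha ganglion cells 3 rose (Spp1, Nefl and Nefm) and Tpbg fell (-4.32, adjusted p = 0.00547), or 37.5% and 12.5% against 1.97% and 3.47% over all listed genes. Nefl and Nefm are also on the list of general ganglion cell markers, so their rise is not particular to alpha cells. The adjusted p of Nefm was 0.00941, and 0.0633 without pool 4. The heavy neurofilament gene Nefh, at 66.002 to 150.1 CPM against 18.3 to 169 CPM, did not pass (1.05, adjusted p = 0.439). Nor did Kcng4, Chrm3 and Il1rapl2 of the alpha cell list (1.23, 1.04 and 1.37, adjusted p = 0.646, 0.525 and 0.376).

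Receptors for neuromodulators and peptides were listed for 43 genes. Of these 5 rose and none fell (11.6% and 0%, against 1.97% and 3.47% over all listed genes), with a median of 0.71. After Oprm1 the largest was Adra2a, the alpha-2A adrenergic receptor, at 73.03, 39.2, 37.4 and 13.6 CPM against 0.0873, 0.624, 0.990 and 0.148 CPM (log2 change 4.66, SE 0.79, adjusted p = 0.00228). The serotonin receptor genes Htr1d and Htr1b both rose. Htr1d was at 40.6 to 85.1 CPM against 0.148 to 23.6 CPM (log2 change 3.38, SE 0.87, adjusted p = 0.0334). Htr1b was at 6.34 to 12.8 CPM against 0 to 1.99 CPM (log2 change 2.67, SE 0.70, adjusted p = 0.0363), and had an adjusted p of 0.0501 with a replicate block. Gabbr2, a subunit of the GABA-B receptor, was at 579 to 1001 CPM against 104 to 325 CPM (log2 change 1.82, SE 0.41, adjusted p = 0.0159), whereas its partner Gabbr1 overlapped between the groups (0.71, adjusted p = 0.350).

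Synaptic adhesion and surface genes gave 9 rises and 3 falls among 73 listed (12.3% and 4.11%, against 1.97% and 3.47% over all listed genes), with a median of 0.45. Most of the risers, namely Gldn, Ptprm, Lrrtm2, Pcdh19, Thbs1, Clstn2 and Lrfn5, were named by the study as ipRGC genes on these samples. The share that rose is thus not independent evidence. Clstn2, a calsyntenin of the postsynaptic membrane, was at 888, 561, 733 and 639.6 CPM against 113, 82.3, 44.3 and 24.6 CPM (log2 change 3.60, SE 0.46, adjusted p = 0.000285). Ptprm, a receptor phosphatase that binds itself across cell contacts, was at 173 to 300.4 CPM against 9.36 to 63.96 CPM (log2 change 3.18, SE 0.54, adjusted p = 0.00254). Thbs1, the matrix protein thrombospondin 1, was at 60.3, 21.9, 31.3 and 30.2 CPM against 0.0582, 0.312, 18.2 and 0 CPM (log2 change 3.92, SE 0.98, adjusted p = 0.0281), its adjusted p being 0.0522 with a replicate block and 0.0849 without pool 4. Slitrk2 fell, at 27.1, 24.4, 48.3 and 22.3 CPM against 1034, 186, 766 and 179 CPM (log2 change -3.75, SE 0.58, adjusted p = 0.00117), as did the adhesion molecule gene Cadm1 (-1.84, adjusted p = 0.0216) and the receptor phosphatase gene Ptprd (-1.53, adjusted p = 0.0455, and 0.0809 without pool 4). Among 15 listed cadherins none rose, and Cdh23, a tip-link cadherin of hair cells and photoreceptors, was the one that fell (-4.91, adjusted p = 0.00392). That is 0% and 6.67% against 1.97% and 3.47% over all listed genes, and 15 genes are too few to read these counts as a result about cadherins.

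**Figure D3:**
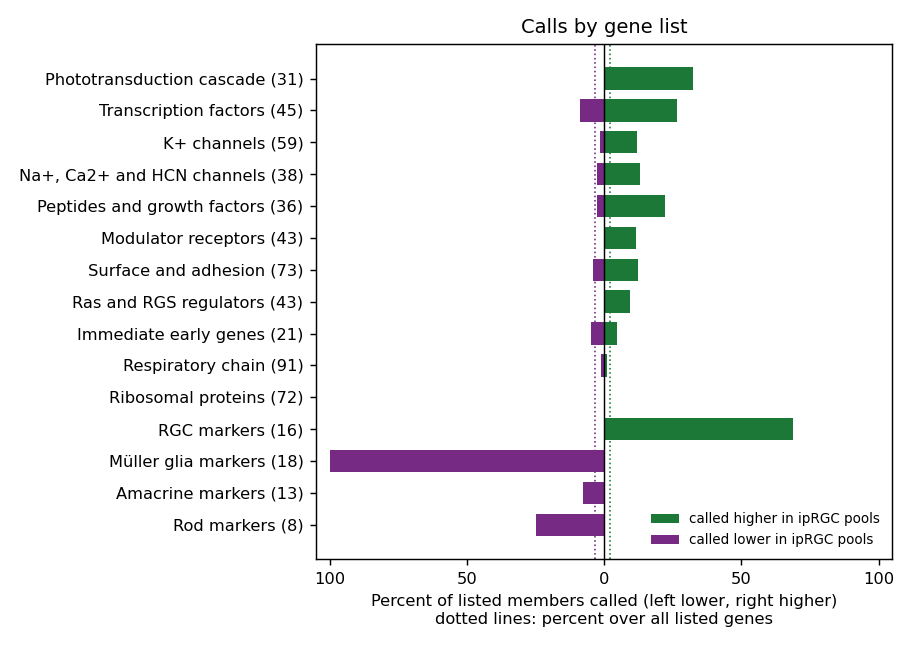
Percent of the listed members of 15 gene lists (y axis, number listed in parentheses) that were called, with genes called higher in the ipRGC pools to the right of 0 and those called lower to the left (x axis), and dotted lines at the percent over all listed genes (1.97 higher, 3.47 lower). All 18 Müller glial markers were called lower and 11 of 16 ganglion cell markers higher, the 31 cascade genes have no bar to the left, and the 72 ribosomal protein genes have no bar.

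The rises can be set beside the ganglion cell markers, since those rose too. Of 16 markers 11 rose (68.8% against 1.97% over all listed genes), with a median log2 difference of 2.45 and Sncg the largest at 3.58. Thy1, Chrna6, Chrnb3, Nefh and Pou4f1 did not pass, and Pou4f1 alone had a difference below 0. Of the 263 genes called higher, 167 exceeded that median and 67 exceeded Sncg. Members of the lists above that lie under 2.45, such as Scn2a1, Gabbr2 and Cacng5, differed by less than the median general ganglion cell gene. The part of the Müller glial and amacrine RNA of the cRGC pools in these differences was not tested.

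Of 43 Ras and RGS regulators Rasgrp1, Rgs4, Gem and Rgs17 rose (2.69, adjusted p = 0.00248 for the last), which is 9.30% against 1.97% over all listed genes, and none fell (median 0.14). The study named all of these risers as genes of ipRGCs on these samples, so the share is not independent evidence. Of 21 immediate early genes, which dissociation and activity can switch on, Nr4a3 rose (3.87, adjusted p = 0.0107) and Jun fell (median -0.33), 4.76% in each direction against 1.97% and 3.47% over all listed genes. Fos was at 57.3, 72.8, 135 and 93.9 CPM against 222, 149, 408 and 199 CPM, lower in each ipRGC pool without passing the test (-1.41, adjusted p = 0.0857). The 72 ribosomal protein genes had no call and a median of 0.06. Of 91 respiratory chain genes 71 had a log2 difference above 0 (median 0.36), while Cox7a1 rose and Cox4i2 fell, 1.10% in each direction against 1.97% and 3.47% over all listed genes. Cox7a1 had no read in any cRGC pool, and was at 1.78, 7.36, 1.71 and 6.24 CPM in the ipRGC pools, at least 151-fold higher against a floor of 3 reads over the 4 cRGC libraries (adjusted p = 0.0435, 0.0568 with a replicate block and 0.0817 without pool 4). Cox4i2 was at 1.39, 3.003, 2.55 and 61.3 CPM against 268, 50.5, 19.9 and 254 CPM, overlapping through ipRGC pool 4 (-3.77, adjusted p = 0.0478).

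The genes that fell did so further, with a median log2 difference of 3.74 in size and 183 of 464 over 4. They took 1.18 to 1.43% of listed reads in the ipRGC pools, and 19.1, 5.96, 9.66 and 7.496% in cRGC pools 1 to 4. In 448 of 464 the groups did not overlap. All 18 listed Müller glial markers were among them (100% against 3.47% over all listed genes), with a median of -5.66, and 49 of the 464 genes fell below that median.

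The 10 largest falls joined Müller glial genes with genes not in the marker list. Sparc, a matrix-binding glycoprotein, was at 12.6, 47.7, 22.3 and 7.16 CPM in the ipRGC pools and at 5977, 1562, 2220.0 and 824 CPM in the cRGC pools (log2 change -6.76, SE 0.61, adjusted p = 4.78e-05). Slc14a1, a urea transporter, was at 0.195, 0.626, 0.388 and 0.102 CPM against 363, 95.02, 211 and 70.8 CPM (log2 change -6.85, SE 0.75, adjusted p = 8.94e-05). Zfp36l1, which hastens decay of AU-rich mRNAs, was at 0.756, 0.938, 1.10 and 0.102 CPM against 491, 73.5, 177 and 197 CPM (log2 change -6.82, SE 0.73, adjusted p = 8.39e-05). In all of these cRGC pool 1 was the highest, as it was for the summed Müller glial markers.

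Rrh, the opsin-like photoisomerase peropsin, was at 0.366, 2.75, 1.58 and 0.205 CPM against 394, 126, 175 and 176 CPM (log2 change -6.64, SE 0.69, adjusted p = 7.59e-05). Tcf7l2, the DNA-binding effector of Wnt signalling, was at 0.732, 0.146, 0.808 and 0.205 CPM against 321, 152, 115 and 69.5 CPM (log2 change -6.62, SE 0.73, adjusted p = 8.94e-05). Mfge8 and Padi2 had log2 changes of -6.67 and -6.66. Pon2 was at 0.463, 1.17, 0.646 and 0.102 CPM against 200.1, 82.004, 162 and 255 CPM (log2 change -6.71, SE 0.70, adjusted p = 7.59e-05), with cRGC pool 4 rather than pool 1 the highest. Cp, the copper-carrying oxidase ceruloplasmin, was at 5.98 to 10.9 CPM against 465 to 1805 CPM (log2 change -6.56, SE 0.50, adjusted p = 7.27e-06).

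Other cell types entered the falls less evenly. Of 8 rod markers 2 fell (25% against 3.47% over all listed genes), Rp1 among them at an adjusted p of 0.0431 (0.0551 with a replicate block and 0.0643 without pool 4). Gnat1, rod transducin, was at 0.0976, 0.0834, 3.72 and 256 CPM against 147, 128, 67.3 and 171 CPM and did not pass (-4.31, adjusted p = 0.0726), whereas without pool 4 it had a log2 change of -5.94 (adjusted p = 0.00168). Of 9 vascular markers 4 were listed and 3 fell, namely the VEGF receptor genes Kdr (-6.83, adjusted p = 5.41e-05, also on the Müller glial list) and Flt1 (-6.42, adjusted p = 8.94e-05) and the pericyte gene Pdgfrb (-5.03, adjusted p = 0.000647). Rgs5 did not pass (-1.66, adjusted p = 0.373), and Pecam1, Cldn5, Tek, Cspg4 and Vwf were not listed. The share that fell was thus 75% of the listed vascular markers, against 3.47% over all listed genes. Of 13 amacrine cell markers 1 fell (7.69% against 3.47% over all listed genes), and of 4 cone markers none passed. Of 3 astrocyte markers Gfap fell (-4.29, adjusted p = 0.00824), of 4 horizontal cell markers Onecut2 rose and Prox1 fell (-2.63, adjusted p = 0.00623), of 8 bipolar cell markers Isl1 rose and 1 fell, and the 1 listed pigment epithelium marker did not pass. The shares were 33.3% lower for astrocytes, and 25% and 12.5% in each direction for horizontal and bipolar cells. Over all listed genes 1.97% rose and 3.47% fell, and these marker lists hold few genes. All 6 markers of ipRGCs rose (Opn4, Eomes, Adcyap1, Trpc7, Tbx20 and Rasgrp1), which is 100% against 1.97% over all listed genes. The Opn4 locus drove the sort label, and the study chose Tbx20 and Rasgrp1 on these samples, so this is not an independent check.

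Genes without a value in adult Opn4-GFP were examined next. They missed the level that a gene needed to be listed in that set, which does not make them particular to this strain, and all but 552 of them had values in the younger Opn4-GFP set. Of these 1916 genes 36 rose (1.88%) and 79 fell (4.12%). The share that rose was close to that over all listed genes (1.97%). Prph, described above, was one of them. Gem, a small GTPase that restrains calcium channels, was at 6.90, 12.1, 9.59 and 47.5 CPM against 0, 0.0480, 0.343 and 0.148 CPM (log2 change 3.75, SE 0.75, adjusted p = 0.00705). Without pool 4 the log2 change of Gem was 3.20 (adjusted p = 0.00970). Lhfpl5, a membrane protein of the hair cell transduction complex, was at 15.6, 27.3, 20.4 and 31.1 CPM against 2.77, 0.792, 0.571 and 2.67 CPM (log2 change 3.25, SE 0.76, adjusted p = 0.0187). Magel2, an imprinted gene of the Prader-Willi region, was at 58.7, 7.36, 19.5 and 13.9 CPM against 0, 5.88, 0.0762 and 0 CPM (log2 change 3.58, SE 0.90, adjusted p = 0.0288). Its adjusted p was 0.0725 with a replicate block and 0.0690 without pool 4.

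Several of these genes were near 0 in the cRGC pools. Nppb, brain natriuretic peptide, had no read in any cRGC pool and was at 2.15, 4.90, 8.72 and 56.5 CPM in the ipRGC pools, at least 321-fold higher against the same floor (adjusted p = 0.0280), with most of its ipRGC level in pool 4. Without pool 4 its log2 change was 2.50 (adjusted p = 0.0337), against 3.34 with it. Cda, cytidine deaminase, was at 15.6, 9.76, 7.56 and 22.001 CPM against 0.0582, 0, 0.267 and 0.296 CPM (log2 change 3.58, SE 0.68, adjusted p = 0.00512), and Palm3 at 5.75 to 34.2 CPM against 0 to 1.08 CPM (log2 change 3.49, SE 0.75, adjusted p = 0.0112). Of the falls, Zcchc24 (-6.27, adjusted p = 0.000140) and the glucose-kinase-like gene Hkdc1 (-6.10, adjusted p = 0.000821) were under 1 CPM in each ipRGC pool and at 59.8 to 193 and 16.7 to 314 CPM in the cRGC pools.

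**Figure D4:**
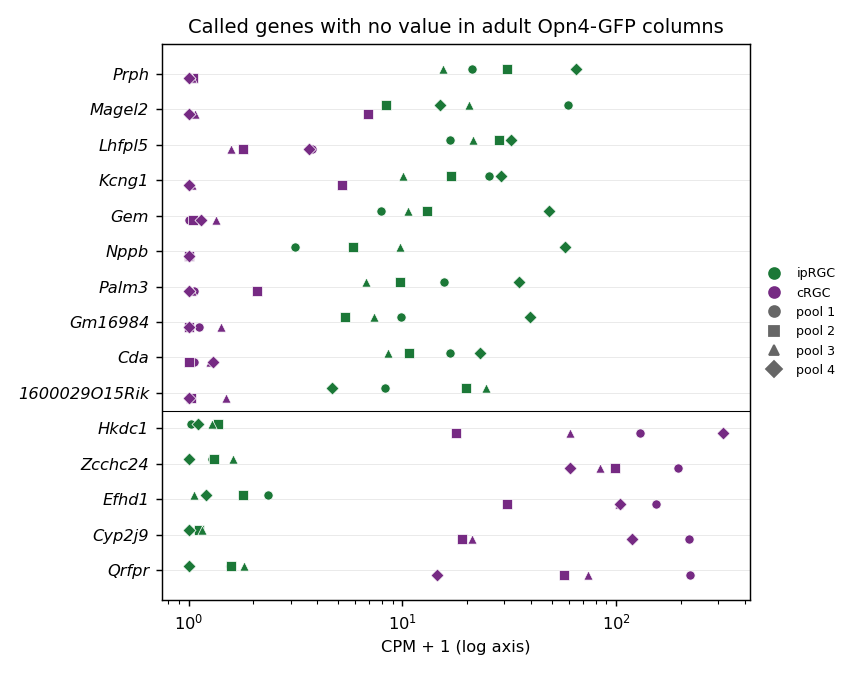
The 10 genes called higher (upper rows) and 5 called lower (lower rows) with the highest levels among those without a value in adult Opn4-GFP libraries, with CPM + 1 on a log axis (x axis), 1 point for each of the 4 ipRGC (green) and 4 cRGC (purple) pools and a symbol for each pool number. The groups do not overlap in any of the rows, and for Nppb, Gem and Gm16984 ipRGC pool 4 lies to the right of the other ipRGC pools.

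The text of the study names 8 genes for ipRGCs of this strain as examples from a longer list that was chosen on these libraries, so that their direction here is not independent evidence. Listed were 7 of them, none with a value in adult Opn4-GFP, and 2 rose (Gem and Anxa2) with a median log2 difference of 2.88. That is 28.6% against 1.97% over all listed genes. Of these 7, 3 rose by the edgeR quasi-likelihood test and 4 each by DESeq2 and without pool 4. Anxa2, annexin A2, was at 6.03, 6.65, 3.88 and 20.9 CPM against 0.233, 0.360, 0.114 and 0 CPM (log2 change 2.90, SE 0.68, adjusted p = 0.0198). Its log2 change was 2.38 (adjusted p = 0.0314) without pool 4. Rbp4, the retinol carrier of plasma, was at 5.61, 2.44, 3.36 and 175 CPM against 0.0291, 0, 0 and 0.148 CPM, so that 1 pool held most of its level (3.46, adjusted p = 0.0714). Without pool 4 its log2 change was 2.20 (adjusted p = 0.0359), and the edgeR quasi-likelihood test over all pools gave it an adjusted p of 0.0162.

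Others of these genes had the same unevenness. Kcnk4, the TRAAK potassium channel, was at 1.73, 5.34, 4.04 and 28.9 CPM against 0, 0.480, 0.571 and 0 CPM (2.53, adjusted p = 0.0719, 0.00402 by DESeq2). Without pool 4 its log2 change was 1.74 (adjusted p = 0.117). Sema3d, a secreted semaphorin, was at 3.32, 3.09, 4.04 and 27.8 CPM against 0.0291, 1.27, 0.0762 and 0 CPM (2.50, adjusted p = 0.0734), and at 1.71 (adjusted p = 0.118) without pool 4. Rxrg, a retinoid receptor, was high in pools 2 and 4, at 1.46, 30.3, 1.26 and 22.9 CPM against 0, 0.240, 0.152 and 0 CPM (2.88, adjusted p = 0.0762, 1.79e-05 by DESeq2), with a log2 change of 2.31 (adjusted p = 0.201) without pool 4. Kcns3, a silent potassium channel subunit, went the other way, lowest in ipRGC pool 4, at 16.95, 4.86, 13.2 and 0.205 CPM against 1.92, 0.0480, 0.0381 and 0.444 CPM (2.15, adjusted p = 0.186, and 0.0405 without pool 4). Thus Gem, Anxa2, Rbp4, Kcnk4 and Sema3d were each highest in ipRGC pool 4. That library also had the highest summed rod (460 CPM), cone (220 CPM) and astrocyte (72.9 CPM) markers of the ipRGC pools, where the others had at most 28.8, 11.3 and 9.44 CPM, and the part of these cells in the 5 genes was not tested. Of the listed markers 2 of 8 for rods, 1 of 4 for cones and 2 of 3 for astrocytes had no read in that library. Each sum there rests on part of its list.

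A further 38 genes were taken from the text of the study as genes of ipRGCs in general, part of a longer list, again chosen on these samples. Of 37 listed 29 rose and none fell (78.4% and 0%, against 1.97% and 3.47% over all listed genes), with a median of 3.41. With a replicate block 25 rose, without pool 4 24, by the edgeR quasi-likelihood test 19 and by DESeq2 28. Unc5a and Unc5d, receptors for netrins, had differences of 2.69 and 2.59 (adjusted p = 0.0675 and 0.0621). The ipRGC pools lay above all cRGC pools for Unc5d, at 233, 303, 475 and 353 CPM against 5.79, 154, 128 and 66.1 CPM.

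How far the pools of a group differed among themselves was taken from genes with a group mean of 20 CPM or more. Over 6556 such genes the median SD among the 4 ipRGC pools was 0.585 on the log2 scale, and 0.384 among pools 1 to 3. For the cRGC pools it was 0.933 over 7346 genes, and 0.749 among pools 1 to 3. In 207 genes ipRGC pool 4 was more than 4 times the next pool, against 7, 1 and 0 genes for pools 1 to 3. In 478 it was more than 4 times below the next, against 9, 1 and 7 genes. These pool 4 genes included Tns3, a focal adhesion protein, which fell and yet overlapped. It was at 2.0003, 3.88, 4.52 and 294 CPM against 909.9, 193, 353 and 106 CPM (log2 change -4.52, SE 1.13, adjusted p = 0.0285), with 0.0963 in the fit with a replicate block and -6.52 (adjusted p = 0.000461) without pool 4. Plpp3, a lipid phosphatase, was alike, at 0.878, 3.67, 1.29 and 277 CPM against 430.3, 92.4, 257 and 93.02 CPM (log2 change -4.35, SE 1.22, adjusted p = 0.0495, 0.114 with a replicate block), and had a log2 change of -6.33 (adjusted p = 0.000745) without pool 4. The 8 genes with the largest SD among the ipRGC pools, these 2 and Gnat1 included, were each at 107 CPM or more in ipRGC pool 4 and at most 4.52 CPM in the other ipRGC pools.

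**Figure D5:**
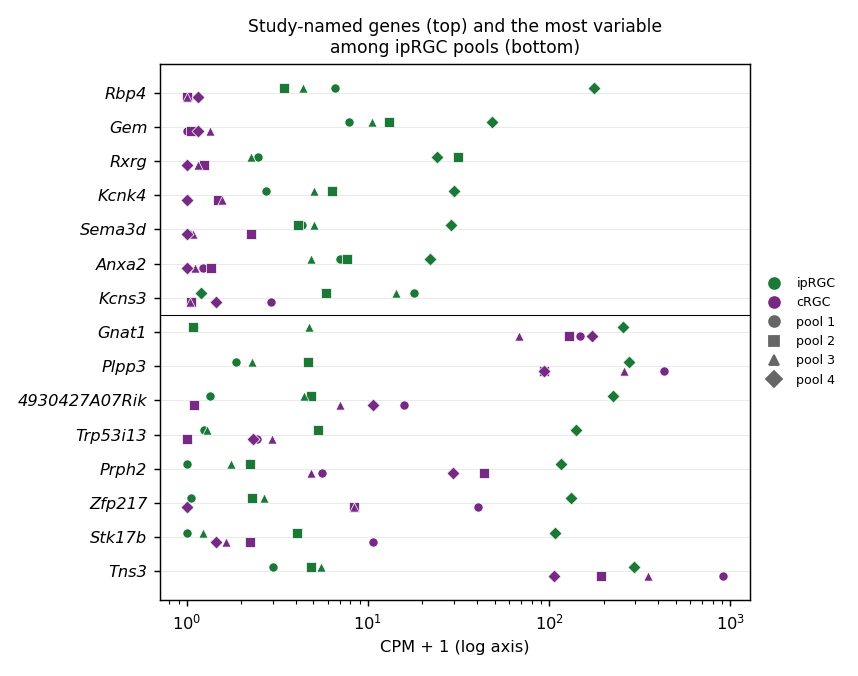
Levels by pool of the 7 listed genes that the study named for this strain (upper rows) and of the 8 genes with the largest SD among the ipRGC pools (lower rows), with CPM + 1 on a log axis (x axis), 1 point for each of the 4 ipRGC (green) and 4 cRGC (purple) pools and a symbol for each pool number. In each of the 8 lower rows ipRGC pool 4 lies far to the right of the other ipRGC pools.

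Finally, whether the ipRGC minus cRGC difference itself differed from that in adult Opn4-GFP was tested on the 11441 genes listed in both strains, with reads of all 20 libraries scaled together. Not 1 gene passed at an adjusted p under 0.05 with limma (272 genes, 2.38%, at an unadjusted p under 0.05) or with the edgeR quasi-likelihood test (also 272 at an unadjusted p under 0.05), and DESeq2 called 6 (0.0524%, with 477 or 4.17% at an unadjusted p under 0.05). On this scale 217 genes rose in Opn4-Cre/GFP and 197 in adult Opn4-GFP, of which 102 were shared (47.0% and 51.8%). The falls were 404 and 379, of which 239 were shared (59.2% and 63.1%), and no gene was called in opposite directions. The strains share no library. On simulated data the limma interaction fit recovered 0 of 100 planted log2 changes of 2 and 16 of 100 of 4. The edgeR fit recovered 0 and 17. The lack of calls therefore does not show that the strains are alike.

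The smallest p of the difference belonged to Ldb3, a Z-disc protein of muscle. It had a log2 change of 3.19 in Opn4-Cre/GFP (adjusted p = 0.0182) and -0.72 in adult Opn4-GFP, a difference of 3.91 (SE 1.02, adjusted p = 0.999). Its jointly scaled ipRGC values were 5.84 to 34.1 CPM here and 107 to 177 CPM in Opn4-GFP, and its cRGC pools there were at 80.2 to 1385 CPM. Deptor, an inhibitor of mTOR, had a log2 change of -0.44 in Opn4-Cre/GFP (adjusted p = 0.773) and was lower in the ipRGC pools of Opn4-GFP (-4.18, adjusted p = 0.000689). Synpo2, an actin-binding protein, was at 4.55 to 41.9 CPM in the cRGC pools of Opn4-Cre/GFP and at 0 to 0.232 CPM in those of Opn4-GFP. Ldb3, Deptor and Synpo2 were also among the 6 genes that DESeq2 called, together with Pirt, Crym and Gm16938, and for none of these did the other tools pass.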

How the data were processed

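The series measured polyadenylated RNA by sequencing in pools of sorted mouse ganglion cells. After read filtering the authors used TopHat2 on mm9 and counted reads per gene with HTSeq, then scaled these counts within each strain and age by the TMM method of edgeR. They deposited scaled CPM (a normalized signal) for genes that passed a minimum of 1 CPM. Tool versions were not given in the sources used here. Strand use in counting was not stated, so reads of overlapping or antisense genes cannot be told apart. The deposited read count of each library after quality filters gave its number of runs. The authors also deposited their own fold changes, p-values and notes, which were not used. All nonzero CPM values (100% of 313164, within 0.01 of a read) were whole multiples of 1 read, so reads were recovered.

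The 8 adult Opn4-Cre/GFP libraries were grouped by their labels and tested, without pairing, with limma 3.58.1 (trend) on log2(CPM + 1), with Benjamini-Hochberg adjustment over 13357 genes. The interaction with strain used recovered reads of 20 libraries scaled together. Although the recovered reads are counts, limma stayed the main test because CPM is the deposited unit, and edgeR 4.0.16 (quasi-likelihood) and DESeq2 1.42.0, run in R 4.3.3, were alternatives, beside pseudocounts of 0.5 and 5, a mean of at least 5 CPM, no TMM factor, each library left out, both pool 4 libraries left out and a replicate block. The code was tested on simulated data, where the main fit recovered 9 of 100 planted log2 changes of 2 and 49 of 100 of 4. CPM is not divided by gene length, so levels were not compared between genes.

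The study describes both sorts of a pool as made in parallel, which is where the pairing by number comes from. Deviations of same-numbered libraries from their group means correlated across genes at r = 0.082, 0.052, 0.268 and 0.088, and over all listed genes each library correlated best with its own number. Over the 1000 most variable genes the same values were -0.018, 0.038, 0.178 and -0.016, and this held for both libraries of pool 3 and for cRGC pool 2, but for no other library.

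Named genes were the 15 largest rises and 10 largest falls among called genes with at least 5 CPM in the higher group and 1 direction in all pools, up to 5 called and 3 uncalled genes of each list, the study's genes for this strain, the 10 smallest interaction p-values, the 10 highest rises and 5 highest falls without a value in adult Opn4-GFP, and the 8 most variable genes. Not all are described, and Pou4f2, Tbx2, Nfib, Nfix, Igf2, Ptprd, Cadm1, Scn2b, Pirt, Crym and Gm16938 were added after their values were seen. Members and lists were chosen with earlier results of these data known. A floor of 3 reads was used where all cRGC libraries were at 0. Promoter windows came from RefSeq (GRCm38.p6), and gene coordinates are those of mm9.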

Additional observations from a re-analysis of the deposited data

Results flagged for a closer look

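For 112 quantities (library facts, marker sums and named genes in each group of 4 pools) Dixon's ratio at the 95% level picked out 25 in which 1 pool lay far from the other pools of its group. The ratio picks about 1 in 20 only for normally distributed values that were not chosen by their spread. Some of these genes were chosen for a large spread among the ipRGC pools, and several cRGC groups lie near 0 CPM. The 25 therefore cannot be set against chance. Of these 25, 16 were values of ipRGC pool 4. It had 1595 listed genes with no read against at most 79 in the other ipRGC pools, and its summed markers were 460 CPM for rods, 220 CPM for cones, 454 CPM for bipolar cells, 72.9 CPM for astrocytes and 0 CPM for the pigment epithelium. In that library 4 of 8 listed bipolar and 2 of 3 listed astrocyte markers had no read. Among genes it stood apart in Rbp4 (175 CPM), Nppb (56.5 CPM), Gem (47.5 CPM), Gm16984 (38.4 CPM), Kcnk4 (28.9 CPM), Sema3d (27.8 CPM) and Anxa2 (20.9 CPM), all high, and likewise in Gnat1 (256 CPM), Plpp3 (277 CPM) and Tns3 (294 CPM). The last 3 are among the genes chosen for their spread.

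The other 9 were values of single cRGC pools above the rest of their group. Pool 1 held Gdf6 at 2.71 CPM and Mfge8 at 771 CPM. Pool 2 held Kcng1 at 4.20 CPM, Magel2 at 5.88 CPM, Sema3d at 1.27 CPM and Palm3 at 1.08 CPM. Pool 3 held Trpc7 at 1.52 CPM, Nmb at 3.28 CPM and Ndst4 at 13.6 CPM.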

How the results depend on the processing

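Of 110 genes described in the text 93 were called, and none turned direction under those of the 18 alternatives that gave it a value (a mean of at least 5 CPM left 104 of them, and genes named by the rule but not described were not counted). With a replicate block limma called 207 higher and 400 lower genes, and 81 of the 93 kept their call. In edgeR with the block 44 of the 93 kept it. That fit called 47 and 175 genes and 31 of those not listed with adult Opn4-GFP (115 in the main fit). The edgeR quasi-likelihood test called 115 higher genes, and 108 without pool 4, an alternative chosen after seeing the data. Of the 93 genes 68 and 61 kept their call in these 2 fits, and 64 did in limma without ipRGC pool 1. Thbs1, Kcng1, Spp1 and Htr1d were among those that the edgeR test over all pools did not pass (adjusted p = 0.447, 0.292, 0.269 and 0.218). DESeq2 called 804 lower genes, 190 of those not listed with adult Opn4-GFP and 6 genes that differed between strains. A mean of at least 5 CPM left 75 of the genes not listed there. Leaving out 1 library gave 111 to 399 higher genes, 308 to 539 lower genes, 56 to 127 of those not listed with adult Opn4-GFP and 0 to 0 that differed between strains. The lowest counts came without ipRGC pool 1 (111, 308 and 56), and the higher genes also moved by over 1.5 times without ipRGC pool 2 (141), ipRGC pool 3 (126), cRGC pool 2 (399) and cRGC pool 3 (173), as did the genes not listed there without ipRGC pools 2 and 3 (69 and 61) and cRGC pool 3 (73). Without the TMM factor the median log2 difference over all genes moved from 0.03 to 0.17. The causes of these shifts were not tested. Depth limits pool 4, where 1 read was worth 0.102 CPM (ipRGC) and 0.148 CPM (cRGC), against 0.0209 to 0.0381 CPM in the other pools.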
